A study of Homo sapiens with 6 samples.

Results

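The 10 genes described here are WNT feedback genes and TCF/LEF transcription factor genes. They were chosen by symbol, as the rows of the count table whose identifiers map in GENCODE release 29 to DKK1, NKD1, NKD2, AXIN2, RNF43, ZNRF3, LEF1, TCF7, TCF7L1 and TCF7L2. These are 10 of 58721 gene rows, each symbol matched 1 row, and 9 of the 10 passed the filter on low counts. The rule goes by symbol, with no threshold on a measured value, though the members were chosen with earlier results of these data known. The libraries were 3 from HEK293T cells in which CRISPR/Cas9 had knocked out both ALKBH5 and FTO, and 3 from wild type HEK293T cells. HEK293T is a line from human embryonic kidney, and the enzymes encoded by ALKBH5 and FTO remove methyl groups from N6-methyladenosine in RNA. All cells were grown in DMEM with fetal calf serum and lysed with Triton X-100 and cycloheximide, and the cytoplasmic RNA was depleted of ribosomal RNA without poly(A) selection. The design text calls the replicates independent biological ones. In bulk RNA, fewer cells of a type and less RNA per cell cannot be told apart. The sources used here do not give the number of clones behind the double knockout libraries, and the wild type columns carry the name HEK293G6, which the labels do not explain. The knockout and any other difference between the cell populations cannot be told apart. The question is how transcripts of this pathway differ when both demethylase genes are targeted.

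WNT ligands bind Frizzled receptors together with the co-receptors LRP5 and LRP6. This stops a destruction complex built on AXIN proteins from marking beta-catenin for degradation. Beta-catenin then enters the nucleus and activates genes through DNA-binding proteins of the TCF/LEF family, which in its absence hold many of the same genes down with corepressors. Several activated genes encode inhibitors of the pathway and so close a negative feedback loop. DKK1 is a secreted protein that binds the LRP co-receptors, NKD1 and NKD2 bind Dishevelled, AXIN2 is a scaffold of the destruction complex, and RNF43 and ZNRF3 are membrane ubiquitin ligases that remove Frizzled receptors from the cell surface.

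Total gene counts lay between 5923328 and 6433469 in the double knockout libraries and between 5634648 and 7551825 in the wild type libraries. Levels are given as CPM, counts scaled to a library total of 1e6 after TMM scaling of the libraries. As a check of the labels, FTO averaged 56.1 CPM in double knockout and 105 CPM in wild type, and ALKBH5 averaged 186 CPM in double knockout and 245 CPM in wild type. Both targeted transcripts were thus lower but present, and gene counts do not show edits. Of the 7 markers associated with HEK293T cells, among them VIM, KRT18 and NEFM, 7 were detected and 7 rose in the double knockout. Their summed level was 1531 to 1544 CPM in double knockout and 1086 to 1157 CPM in wild type. Fibroblast markers summed to 10.3 to 12.3 CPM in double knockout and 16.7 to 19.7 CPM in wild type, with COL1A2 at 0 counts in all libraries. Of the 6 fibroblast markers 3 were tested and 3 fell, COL3A1 by 2.41 and COL1A1 by 0.34 on the log2 scale. By the same test, described below, 28.6% of all tested genes rose and 28.5% fell. LUM had 3 counts in double knockout and 52 in wild type, a ratio of 0.0642 with a 95% counting interval of 0.0128 to 0.198. PDGFRB, not tested and named after its values were seen, had 16 counts in double knockout and 4 in wild type. Haematopoietic markers summed to 2.16 to 2.92 CPM in double knockout and 1.49 to 2.20 CPM in wild type, with CD3E and HBB at 0 counts, and hepatocyte markers to 0.480 to 0.999 CPM in double knockout and 0.363 to 1.37 CPM in wild type. The part of these markers in the results below was not tested.

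Among the members, DKK1 and NKD2 rose in the double knockout, LEF1, TCF7L2 and NKD1 fell, and AXIN2, ZNRF3, TCF7 and TCF7L1 did not pass the test. RNF43 was listed at 0 counts in every library. The calls come from edgeR's quasi-likelihood test at a Benjamini-Hochberg adjusted p under 0.05 over all 14180 tested genes. Thus 5 of the 9 tested members were called, 2 higher and 3 lower. In this comparison 57.1% of all tested genes were called, 28.6% higher and 28.5% lower, so a called share of this size was no more than the background. The median log2 fold change of the 9 tested members was -0.10, against 0.01 for all tested genes. The libraries of the groups did not overlap for 6 of the 9 members, against 60.6% of all tested genes. By size, DKK1 stood out more: 97.4% of tested genes had a smaller log2 fold change in size than DKK1, 83.5% a smaller one than NKD2 and 68.8% a smaller one than TCF7L2. Changes of at least 2-fold that also passed the test made up 6% of tested genes, and by its estimate DKK1 was the member in that class. DKK1 rested on 100 counts in double knockout and 39 in wild type. The 95% interval of its log2 fold change, 0.92 to 1.98, began below 2-fold.

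**Figure D1:**
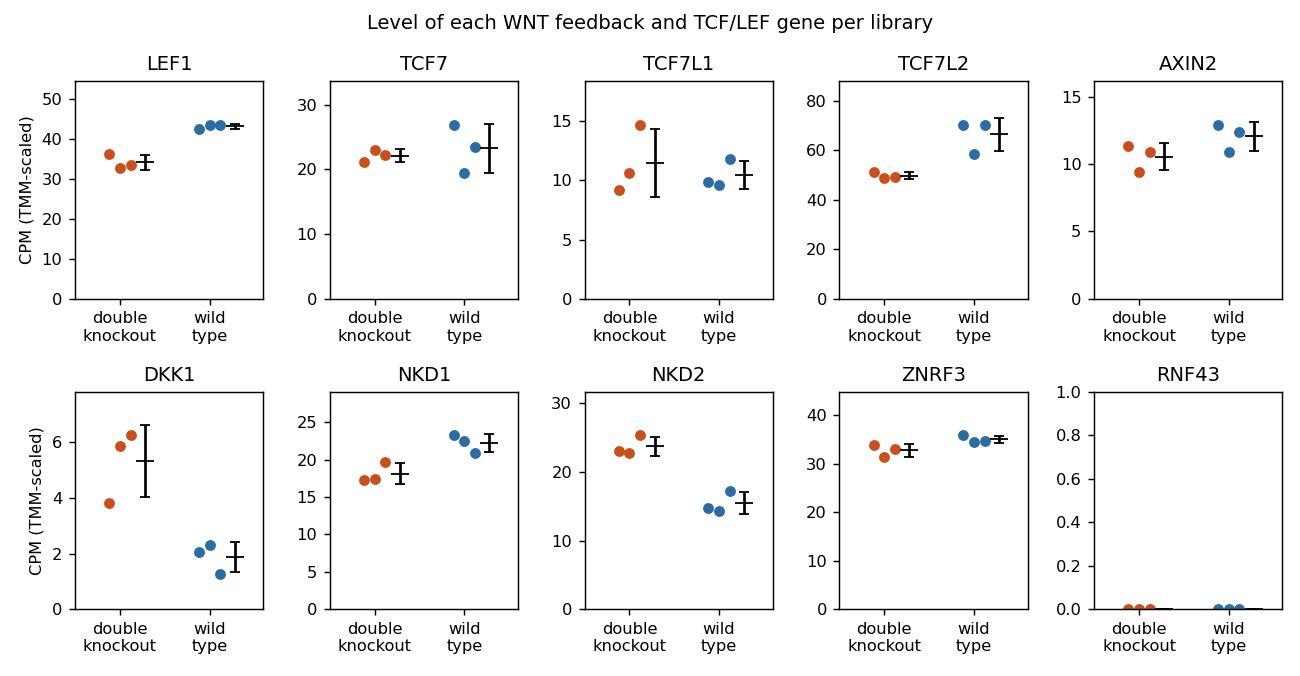
Level of each of the 10 members in TMM-scaled CPM (vertical axis, starting at 0, with its own range in each panel) in the 3 double knockout libraries (orange, left) and the 3 wild type libraries (blue, right), with points for libraries and a black bar for the mean ± SD. DKK1 and NKD2 lie higher in all double knockout libraries, LEF1, TCF7L2 and NKD1 lie lower, and RNF43 is at 0 counts throughout.

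Promoter sequence was at hand for 7 of the 10 members, as 11 RefSeq windows on GRCh38.p14. The 250 bases before the first listed start of the 4 members with the smallest p-values are shown, since these genes moved in opposite directions within one pathway. Capitals mark CTTTG or its reverse complement CAAAG, the core of the sequence that TCF/LEF proteins bind.

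DKK1, chr10:52314031-52314280, plus strand: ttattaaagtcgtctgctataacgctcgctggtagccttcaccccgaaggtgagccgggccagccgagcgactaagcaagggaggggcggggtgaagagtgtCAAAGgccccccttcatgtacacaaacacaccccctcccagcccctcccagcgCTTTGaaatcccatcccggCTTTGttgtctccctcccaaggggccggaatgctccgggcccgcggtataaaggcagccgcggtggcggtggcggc
NKD2, chr5:1008552-1008801, plus strand: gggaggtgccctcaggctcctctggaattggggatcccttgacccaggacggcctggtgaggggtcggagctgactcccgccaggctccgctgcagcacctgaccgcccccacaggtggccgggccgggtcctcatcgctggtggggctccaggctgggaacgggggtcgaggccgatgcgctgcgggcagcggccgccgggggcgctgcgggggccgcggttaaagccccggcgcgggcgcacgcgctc
LEF1, chr4:108166302-108166551, minus strand: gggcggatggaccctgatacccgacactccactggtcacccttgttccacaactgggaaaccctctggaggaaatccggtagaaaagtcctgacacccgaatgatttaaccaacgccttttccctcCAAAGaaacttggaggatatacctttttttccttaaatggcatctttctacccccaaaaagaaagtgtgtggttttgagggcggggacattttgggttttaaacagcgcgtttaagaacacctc
TCF7L2, chr10:112949997-112950246, plus strand: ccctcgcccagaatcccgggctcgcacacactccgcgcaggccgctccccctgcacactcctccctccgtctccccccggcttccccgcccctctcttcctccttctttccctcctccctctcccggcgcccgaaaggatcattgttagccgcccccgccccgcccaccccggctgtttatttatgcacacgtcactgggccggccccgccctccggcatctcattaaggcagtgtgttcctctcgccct

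The DKK1 window held 3 copies of the core, whose first bases lie 148, 95 and 76 bases before the start. The LEF1 window held 1 copy, at 124 bases, and the NKD2 and TCF7L2 windows shown held none. TCF7L2 windows 2 and 3, at later starts and not shown, held 3 copies and 1 copy. Over all 11 windows of members, 7 held the core on either strand, against 42.1% of 35116 promoters of the same length. The longer form CTTTGAT, searched with its reverse complement ATCAAAG and overlapping the core, was in 0 of the 11 windows and in 2.26% of all promoters. The windows are short and some genes have several starts, so these matches describe letters only.

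Of the TCF/LEF factors, TCF7L2, the most abundant by counts, was lower in the double knockout. TCF7L2 (ENSG00000148737.16, hg38 chromosome 10, 112950250 to 113167678) had 51.3, 48.6 and 49.3 CPM in double knockout replicates 1 to 3, against 70.3, 58.7 and 70.4 CPM in wild type replicates 1 to 3. All 3 double knockout libraries lay below all wild type libraries, of which replicate 2 was the lowest. TCF7L2 fell by 0.41 on the log2 scale (SE 0.07, edgeR adjusted p = 3.35e-09), with means of 49.7 ± 1.38 CPM in double knockout and 66.4 ± 6.75 CPM in wild type (SD, n = 3 each). The 95% interval of the log2 fold change ran from -0.54 to -0.28.

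LEF1, a factor that is itself activated by WNT signalling in many tissues, was also lower. LEF1 (ENSG00000138795.9, chromosome 4, 108047545 to 108168956) had 36.3, 32.8 and 33.4 CPM in double knockout replicates, against 42.3, 43.4 and 43.6 CPM in wild type replicates. The groups did not overlap, and the wild type libraries were close to each other. LEF1 fell by 0.34 (SE 0.08, edgeR adjusted p = 7.77e-05), with means of 34.2 ± 1.87 CPM in double knockout and 43.1 ± 0.676 CPM in wild type (SD, n = 3 each). The neighbours of LEF1 moved in the same direction and further. Within 5 Mb of its centre 41 other genes were tested, of which 26 fell and 3 rose, with a median log2 fold change of -0.53. LEF1 therefore stood 0.20 above the median of its neighbours on the log2 scale, and the part of this chromosomal region in the fall of LEF1 was not tested. For TCF7L2 the 34 tested neighbours had a median of 0.03.

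TCF7 and TCF7L1 did not pass. TCF7 (ENSG00000081059.19, chromosome 5, 134114711 to 134151865), a factor known for its role in T cells and also an activator of WNT targets, had 21.1, 23.1 and 22.2 CPM in double knockout and 26.9, 19.4 and 23.4 CPM in wild type. Its wild type libraries spanned the double knockout values. The log2 fold change was -0.07 (95% interval -0.26 to 0.13, edgeR adjusted p = 0.592). TCF7L1 (ENSG00000152284.4, chromosome 2, 85133410 to 85310388), known mainly as a repressor of WNT targets, had 9.16, 10.6 and 14.7 CPM in double knockout and 9.90, 9.64 and 11.8 CPM in wild type. Double knockout replicate 3 was the highest library, and the groups overlapped. Its log2 fold change was 0.16 (95% interval -0.13 to 0.44, edgeR adjusted p = 0.369). Without that library its log2 fold change was -0.06, and without wild type replicate 1 that of TCF7 was 0.06. Several members of this family are made as long forms and as short forms that lack the beta-catenin binding part, and gene counts do not separate them.

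Added over the family, TCF/LEF transcripts had 118, 115 and 120 CPM in double knockout replicates and 149, 131 and 149 CPM in wild type replicates. The groups did not overlap (means 118 ± 2.30 CPM in double knockout and 143 ± 10.5 CPM in wild type, SD, n = 3 each, two-sided exact permutation test, p = 0.1, which is the smallest value possible here). Within the family TCF7L2 took 43.5%, 42.2% and 41.2% of the counts in double knockout and 47.0%, 44.7% and 47.2% in wild type (exact permutation p = 0.1). The share of LEF1 was 29.1% ± 1.51 in double knockout and 30.2% ± 2.55 in wild type (SD, n = 3 each, exact permutation p = 0.6). TCF7L1 took 9.76% ± 2.31 in double knockout and 7.29% ± 0.644 in wild type, and TCF7 took 18.9% ± 1.08 in double knockout and 16.2% ± 1.67 in wild type (SD, n = 3 each, exact permutation p = 0.2 for both). With 3 libraries in each group no share could reach a p below 0.05.

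**Figure D2:**
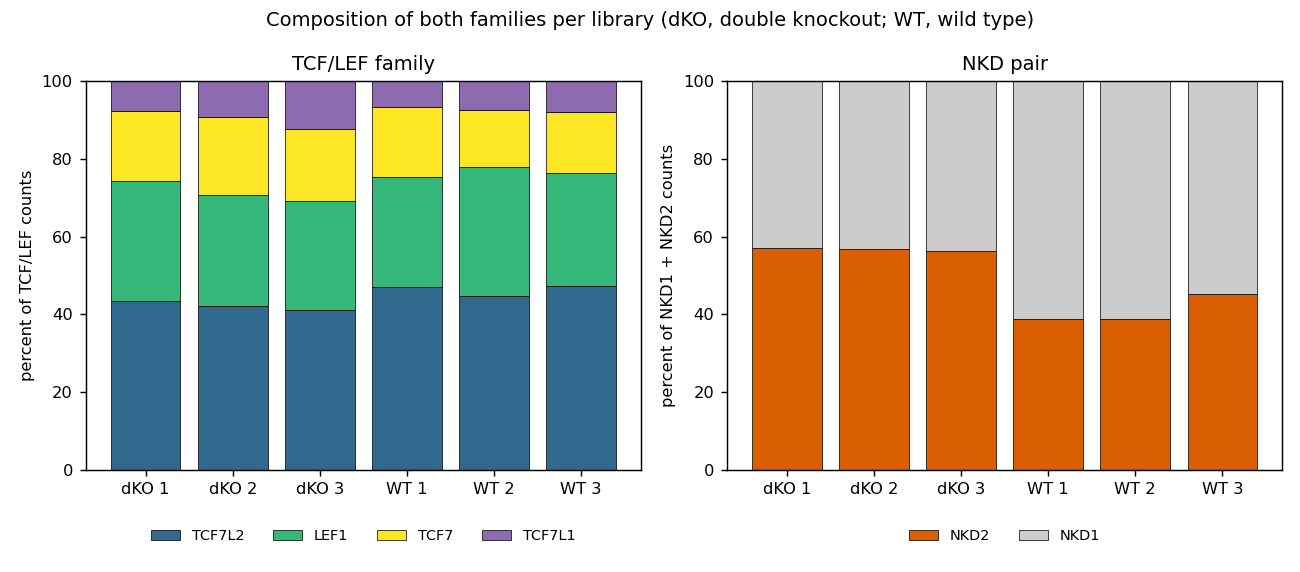
Percent of the counts of a family (vertical axes, 0 to 100) taken by each gene in each library, with the 3 double knockout libraries left of the 3 wild type libraries. On the left panel TCF7L2 takes 41.2% to 43.5% in double knockout and 44.7% to 47.2% in wild type, and on the right panel NKD2 takes 56.2% to 57.0% in double knockout and 38.8% to 45.2% in wild type.

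Of the feedback genes, DKK1 changed most. DKK1 (ENSG00000107984.9, chromosome 10, 52314296 to 52318042) had 3.83, 5.85 and 6.24 CPM in double knockout replicates, from 23, 38 and 39 counts, against 2.06, 2.31 and 1.27 CPM in wild type replicates, from 15, 17 and 7 counts. Every double knockout library lay above every wild type library, and the lowest double knockout library was replicate 1. DKK1 rose by 1.45 on the log2 scale (SE 0.27, edgeR adjusted p = 4.55e-07), with means of 5.31 ± 1.29 CPM in double knockout and 1.88 ± 0.542 CPM in wild type (SD, n = 3 each). Its 95% interval, 0.92 to 1.98, rested on 100 counts in double knockout and 39 in wild type. Its 23 tested neighbours within 5 Mb had a median log2 fold change of -0.01. PRKG1-AS1, on the opposite strand, shares 9.61% of the DKK1 exon bases and had 20 counts in double knockout and 19 in wild type.

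NKD1 and NKD2, paralogs that both bind Dishevelled, moved in opposite directions. NKD2 (ENSG00000145506.13, chromosome 5, 1008829 to 1038943) had 23.0, 22.8 and 25.3 CPM in double knockout and 14.7, 14.3 and 17.2 CPM in wild type. NKD2 rose by 0.63 (SE 0.11, edgeR adjusted p = 4.97e-08), with means of 23.7 ± 1.39 CPM in double knockout and 15.4 ± 1.61 CPM in wild type (SD, n = 3 each). NKD1 (ENSG00000140807.6, chromosome 16, 50548330 to 50649249) had 17.3, 17.4 and 19.7 CPM in double knockout and 23.2, 22.4 and 20.9 CPM in wild type. NKD1 fell by 0.30 (SE 0.11, edgeR adjusted p = 0.0112), with means of 18.1 ± 1.34 CPM in double knockout and 22.2 ± 1.20 CPM in wild type (SD, n = 3 each). For both genes the groups did not overlap, though the highest double knockout library and the lowest wild type library of NKD1 were close. The NKD1 call was lost without wild type replicate 1 (adjusted p = 0.0509) and with DESeq2 (adjusted p = 0.0695).

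NKD2 took 57.0%, 56.7% and 56.2% of the pooled NKD1 and NKD2 counts in double knockout replicates, against 38.8%, 38.9% and 45.2% in wild type replicates. NKD2 thus held the larger count in all 3 double knockout libraries and the smaller one in all 3 wild type libraries (exact permutation p = 0.1, the smallest possible). The pair together had 41.8 ± 2.73 CPM in double knockout and 37.6 ± 0.798 CPM in wild type (SD, n = 3 each, exact permutation p = 0.1). Every library was listed with 7 pg of GFP and 1.2 pg of FLuc spike-in RNA for 1 ug of RNA. Levels per spike-in count are therefore relative to RNA mass, not to cells. Per count of this spike-in RNA the pair did not separate the groups (exact permutation p = 0.7). Within 5 Mb of NKD2, near the end of the short arm of chromosome 5, 14 of 24 tested neighbours rose and 1 fell, with a median log2 fold change of 0.22. NKD2 exceeded that median by 0.42, and the part of its region in its rise was not tested. The 40 tested neighbours of NKD1 had a median of 0.02.

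AXIN2 is often read as a general marker of WNT activity because many tissues switch it on. AXIN2 (ENSG00000168646.12, chromosome 17, 65528563 to 65561647) had 11.3, 9.39 and 10.9 CPM in double knockout and 12.9, 10.9 and 12.3 CPM in wild type. The groups overlapped, with means of 10.5 ± 1.01 CPM in double knockout and 12.0 ± 1.06 CPM in wild type (SD, n = 3 each). The log2 fold change was -0.19 (95% interval -0.47 to 0.09, edgeR adjusted p = 0.248). It rested on 197 counts in double knockout and 242 in wild type. AC004805.1 on the same strand shares 25.2% of the AXIN2 exon bases and had 15 counts in double knockout and 26 in wild type.

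The ubiquitin ligase gene ZNRF3 (ENSG00000183579.15, chromosome 22, 28883592 to 29057487) had 34.0, 31.4 and 33.0 CPM in double knockout and 35.9, 34.5 and 34.7 CPM in wild type. The double knockout libraries all lay below the wild type libraries, but by little, and the gene did not pass (log2 fold change -0.10, 95% interval -0.26 to 0.07, edgeR adjusted p = 0.322). RNF43 (ENSG00000108375.12, chromosome 17, 58352500 to 58417595), its paralog, was listed at 0 counts in all 6 libraries. This 0 is not a level. AC004687.2, a gene on the same strand that covers 57.6% of the RNF43 exon bases, was also listed at 0, and 1959 of the 7505 RNF43 exon bases lie outside every other annotated gene. SUPT4H1, which overlaps both and encodes a transcription elongation factor that cells use generally, was listed at 0 as well. The counting rule for reads that fall in more than one gene is not stated in the labels, and no comparison of RNF43 was made.

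**Figure D3:**
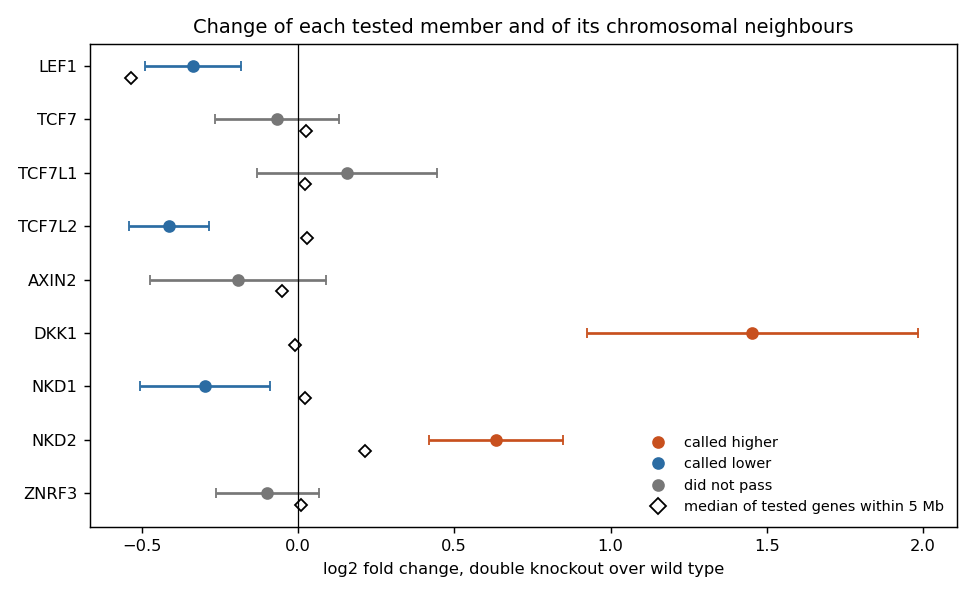
Log2 fold change of the 9 tested members, double knockout over wild type (horizontal axis), with 95% intervals from the fit; orange marks genes called higher, blue genes called lower and grey genes that did not pass. Open diamonds give the median log2 fold change of the other tested genes within 5 Mb: the diamond of LEF1 is at -0.53, left of LEF1 itself, and that of NKD2 is at 0.22.

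Summed over the 6 feedback genes, the level was 90.4 ± 4.21 CPM in double knockout and 86.5 ± 2.25 CPM in wild type (SD, n = 3 each, exact permutation p = 0.2). RNF43 entered the sums and the DKK1 share of this paragraph at its listed 0 counts, so they carry no measured level of RNF43. In the sum of the 6 genes the libraries of the groups overlapped. This sum joins the higher DKK1 and NKD2, the lower NKD1, and AXIN2 and ZNRF3, whose means were lower without passing the test. Without DKK1 and NKD2, the remaining sum was 61.4 ± 2.86 CPM in double knockout and 69.2 ± 2.43 CPM in wild type (SD, n = 3 each, exact permutation p = 0.1). This grouping was made after the values were seen. DKK1 took 5.86% ± 1.37 of the feedback counts in double knockout and 2.18% ± 0.646 in wild type (SD, n = 3 each, exact permutation p = 0.1).

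To compare genes with each other, counts were divided by the length of all annotated exons of the gene and scaled to the same sum in every library (TPM). In double knockout the order of levels was NKD2 (28.2 ± 1.93 TPM), TCF7L2 (25.4 ± 1.22), LEF1 (21.9 ± 1.62), ZNRF3 (16.2 ± 0.987), TCF7L1 (8.95 ± 2.27), DKK1 (8.24 ± 1.93), TCF7 (7.56 ± 0.182), AXIN2 (6.93 ± 0.811) and NKD1 (3.57 ± 0.292). In wild type it was TCF7L2 (32.9 ± 3.18 TPM), LEF1 (26.8 ± 0.347), NKD2 (17.8 ± 1.64), ZNRF3 (16.8 ± 0.484), TCF7L1 (7.89 ± 0.791), TCF7 (7.71 ± 1.26), AXIN2 (7.69 ± 0.669), NKD1 (4.25 ± 0.277) and DKK1 (2.85 ± 0.848), all SD over 3 libraries. In double knockout the libraries of NKD2 and TCF7L2 overlapped, as did those of TCF7L1, DKK1, TCF7 and AXIN2. In wild type the libraries of NKD2 and ZNRF3 overlapped, as did those of TCF7L1, TCF7 and AXIN2. Both orders depend on the length used. With the median length of the annotated transcripts of each gene in place of its exon length, the order at the top in double knockout was TCF7L2 (48.0 TPM), LEF1 (31.2), TCF7 (26.8), NKD1 (22.9) and NKD2 (21.1). NKD1, whose exon length is 17425 bases and whose median transcript length is 748 bases, then ranked 4 in wild type against 8. In wild type NKD2 ranked 6 against 3, ZNRF3 7 against 4 and TCF7 3 against 6, while TCF7L2 and LEF1 kept ranks 1 and 2 and DKK1 kept rank 9.

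Among all tested genes, those with the pattern nearest to DKK1 were NEK5, RASGRP1 and ITPKA. Likeness was the Euclidean distance between log2 CPM values centred on their mean over the 6 libraries, which was 0.259 for NEK5, 0.392 for RASGRP1 and 0.417 for ITPKA, and 12 genes lay within 0.5 of DKK1. For TCF7L2, the called member with the largest fall, the nearest were POC1A (0.0998), DOCK3 (0.103) and PSMA1 (0.106), and 4542 genes lay within 0.5.

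The rest of the pathway was described with 8 lists of genes by role, which together held 121 genes besides the members, 91 of them tested. Of these 24 rose, 27 fell and 40 did not pass, against 28.6% of all tested genes higher and 28.5% lower, and their median log2 fold change was -0.02. Scaling to the GFP and FLuc spike-in RNAs moved the median of all tested genes to -0.10, against 0.01 with TMM. This scaling is relative to the mass of RNA, not to cells, and rested on only 285 to 384 GFP and 31 to 64 FLuc counts per library. The part of counting error in that shift was not tested. Spike-in scaling called 15% of all tested genes higher and 29.9% lower, and scaling to total counts called 33.8% higher and 23.9% lower. The list counts with both scalings are given where they changed and are to be read against these shares. With spike-in scaling the medians of the receptors and of the other targets turned to -0.026 and -0.031. That of the R-spondin and LGR genes turned to -0.059 from 0.053 with TMM. With total count scaling the medians of the relay and of the other antagonists turned to 0.0074 and 0.015.

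Among WNT ligands 10 of 19 genes were tested, of which 6 rose and 2 fell (4 and 2 with spike-in scaling, 7 and 2 with total count scaling), with a median log2 fold change of 0.41. WNT7B had 2.71 ± 0.476 CPM in double knockout and 0.439 ± 0.212 CPM in wild type (SD, n = 3 each) and rose by 2.56 (edgeR adjusted p = 1.03e-07), on 51 counts in double knockout and 9 in wild type. WNT3, a ligand that signals through beta-catenin, rose by 0.57, and WNT9A rose by 1.42. WNT5A, known mainly for signalling without beta-catenin, had 22.5 ± 1.32 CPM in double knockout and 43.2 ± 3.06 CPM in wild type (SD, n = 3 each) and fell by 0.93 (edgeR adjusted p = 2.59e-23). Its 68 tested neighbours on chromosome 3 had a median of -0.40, and 49 of them fell. WNT2B, which shares 21.2% of its exon bases with ST7L on the opposite strand, fell by 0.74. The genes for ligand acylation and transport, PORCN and WLS, did not pass (edgeR adjusted p = 0.370 for PORCN and 0.228 for WLS). With total count scaling 1 of these 2 genes was called higher, and their median turned to 0.0084 from -0.044 with TMM.

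Of 16 receptors and co-receptors 15 were tested, of which 3 rose and 5 fell (2 and 5 with spike-in scaling, 6 and 5 with total count scaling), with a median of 0.08. ROR2, a receptor for WNT5A, had 17.8 ± 0.627 CPM in double knockout and 3.53 ± 0.465 CPM in wild type (SD, n = 3 each) and rose by 2.33 (edgeR adjusted p = 4.22e-36). Its 46 tested neighbours on chromosome 9 had a median of 0.25. The Frizzled genes FZD1 and FZD8 rose by 0.61 and 0.38, and the call of FZD8 was lost with spike-in scaling, with DESeq2, without the filter on low counts and without any one of double knockout replicates 2 and 3 and wild type replicates 2 and 3, at adjusted p-values up to 0.208. RYK, which encodes another WNT receptor, fell by 0.81 (edgeR adjusted p = 5.01e-48), on a part of chromosome 3 where 42 of 53 tested neighbours fell with a median of -0.60. LRP6, a co-receptor that DKK1 protein binds, had 84.3 ± 3.60 CPM in double knockout and 114 ± 0.569 CPM in wild type (SD, n = 3 each). LRP6 fell by 0.44 (edgeR adjusted p = 4.85e-16), while its 52 tested neighbours had a median of 0.11. LRP5, the other LRP co-receptor, averaged 118 CPM in double knockout and 110 CPM in wild type. LRP5 did not pass (log2 fold change 0.10, edgeR adjusted p = 0.057). FZD3 fell by 0.54. Of 7 R-spondin and LGR genes, whose products counteract RNF43 and ZNRF3, 4 were tested, and RSPO4, LGR4, LGR5 and LGR6 did not pass, with edgeR adjusted p-values between 0.483 for RSPO4 and 0.962 for LGR5.

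Of 17 other extracellular antagonists 8 were tested, of which 2 rose and 1 fell, with a median of -0.04. SFRP1, a secreted protein that binds WNT ligands, had 12.5 ± 2.25 CPM in double knockout and 1.99 ± 0.782 CPM in wild type (SD, n = 3 each) and rose by 2.60 (edgeR adjusted p = 3.06e-29). TRABD2A, which encodes a protease that cleaves WNT proteins, rose by 1.53. SOSTDC1, a secreted antagonist of WNT and BMP signals, fell by 1.79, on 17 counts in double knockout and 64 in wild type. Spike-in scaling called 2 of these antagonists higher and 2 lower.

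All 19 genes of the signal relay and destruction complex were tested, of which 3 rose and 7 fell, with a median of -0.05. Spike-in scaling called 0 of them higher and 8 lower, where it called 15% of all tested genes higher and 29.9% lower. Total count scaling called 3 higher and 6 lower. The kinase gene GSK3B had 54.3 ± 0.522 CPM in double knockout and 99.9 ± 1.53 CPM in wild type (SD, n = 3 each) and fell by 0.88 (edgeR adjusted p = 8.80e-43), among 40 tested neighbours with a median of -0.56. FBXW11, a subunit of the ligase that marks beta-catenin, fell by 0.51 among neighbours with a median of -0.39. AMER1, a membrane partner of APC, fell by 0.51 among neighbours with a median of 0.18. The Dishevelled genes DVL1 and DVL3 rose by 0.24 and 0.22 among neighbours with medians of 0.16 and 0.04. AXIN1, the constitutive paralog of AXIN2, rose by 0.17 among neighbours with a median of 0.13. These 3 calls were lost with spike-in scaling, at adjusted p-values of 0.275, 0.384 and 0.627, and that of AXIN1 also with DESeq2 (0.0928), without double knockout replicate 3 (0.103) and without wild type replicate 1 (0.0590).

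All 18 genes of beta-catenin and its nuclear partners were tested, of which 4 rose and 9 fell (3 and 9 with spike-in scaling, 5 and 8 with total count scaling), with a median of -0.11. CTNNB1, the gene of beta-catenin, had 230 ± 1.63 CPM in double knockout and 323 ± 5.81 CPM in wild type (SD, n = 3 each) and fell by 0.49 (edgeR adjusted p = 2.07e-36). Of its 63 tested neighbours on chromosome 3, 49 fell, with a median of -0.53, and the part of the region in the fall of CTNNB1 was not tested. CBY1, which encodes an inhibitor of beta-catenin and shares 44.8% of its exon bases with AL021707.2 on the opposite strand, fell by 0.42, and SMARCA4, a chromatin remodeller, fell by 0.26. AES and the corepressor gene CTBP1 rose by 0.89 and 0.49, CTBP1 among 61 neighbours of which 53 rose with a median of 0.49. JUP, encoding plakoglobin, a relative of beta-catenin at cell junctions, rose by 0.71.

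Of 25 other genes described as targets of beta-catenin and TCF, 17 were tested, of which 6 rose and 3 fell, with a median of 0.08, and the same counts were found with spike-in scaling, while total count scaling called 6 higher and 2 lower. FGF9, a growth factor gene, had 16.0 ± 1.51 CPM in double knockout and 5.12 ± 0.860 CPM in wild type (SD, n = 3 each) and rose by 1.63 (edgeR adjusted p = 8.54e-22). NRCAM, an adhesion molecule, rose by 0.97, and the receptor gene EPHB2 rose by 0.60. MYC fell by 0.16, SOX9 by 0.46 and BAMBI by 0.30. The call of SOX9 was lost with DESeq2 (adjusted p = 0.0569), and that of BAMBI with DESeq2, with limma voom, with total count scaling, without the filter on low counts and without double knockout replicate 1 (0.115), double knockout replicate 2 (0.115) or wild type replicate 2 (0.442). CD44, named after its values were seen, had 41 counts in double knockout and 1 in wild type, a ratio of 45.6 with a 95% counting interval of 7.75 to 1846. LGR5, a target in intestinal stem cells, averaged 44.5 ± 2.67 CPM in double knockout and 44.4 ± 1.30 CPM in wild type (SD, n = 3 each).

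**Figure D4:**
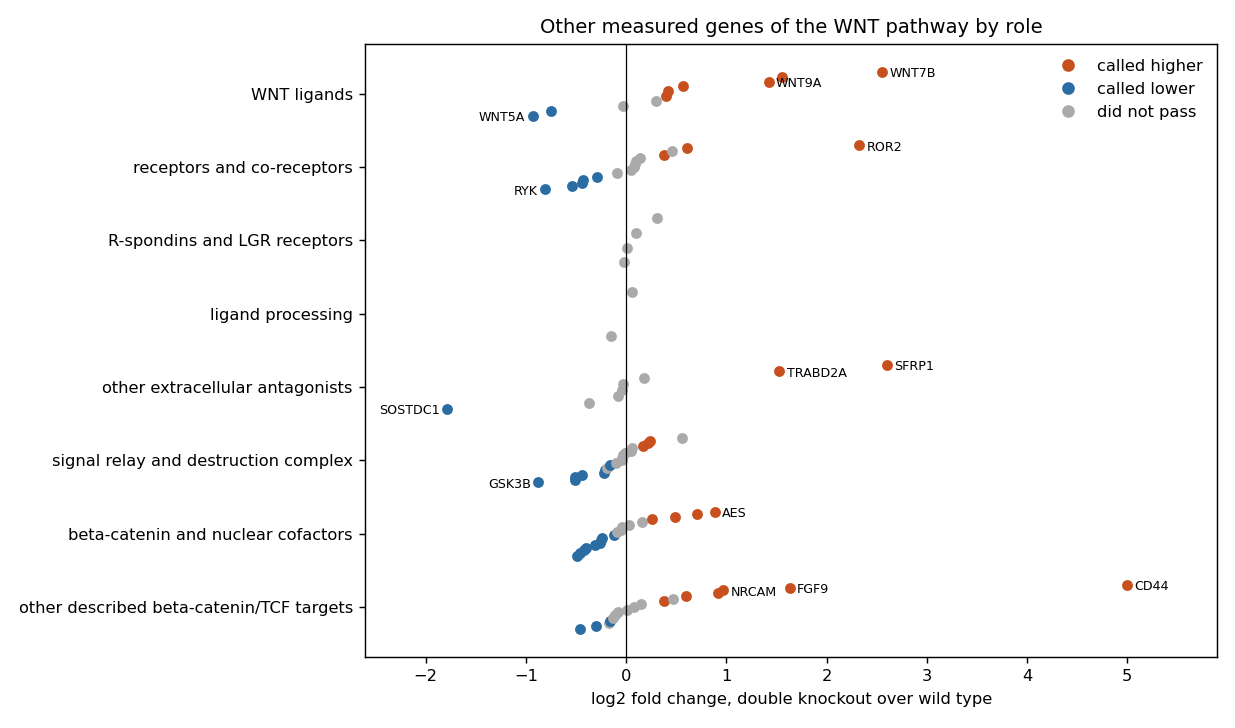
Log2 fold change, double knockout over wild type (horizontal axis), of every tested gene of the 8 role lists (rows); orange marks genes called higher, blue genes called lower and grey genes that did not pass. SFRP1, WNT7B and ROR2 lie beyond 2 on the right, SOSTDC1 lies at -1.79, and the point at 5.00 is CD44, which had 1 count in wild type.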

How the data were processed

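The authors deposited raw read counts per gene, whole numbers without normalisation, for 6 libraries. Per the submitters' processing notes, reads were trimmed with cutadapt 2.10, aligned with STAR 2.7.6a to hg38 and counted with featureCounts. Its strand setting and its treatment of reads in several genes are not stated in the labels, so genes that share exons have uncertain counts. Symbols and positions came from GENCODE 29, whose identifiers matched all 58721 gene rows. The 4 spike-in rows, 0.0104% to 0.0125% of counts per library, were left out of library sizes. Wild type columns were assigned because no other genotype remained.

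Counts were fitted in R 4.3.3 with edgeR 4.0.16: filterByExpr (minimum count 10, minimum total 15), TMM, glmQLFit in robust mode and glmQLFTest, two-sided, over all 6 libraries without a block. Single values were compared with two-sided exact permutation tests. The fit was tested on simulated data. Replicate numbers did not pair the libraries (correlations of 0.0106, 0.0166 and 0.0085). Libraries of one group differed beyond sampling noise, though by little, and were counted separately. Their chi-square per degree of freedom was 1.11 to 1.41, against 11.8 to 13.9 between libraries of different groups. Beyond counting noise, the common coefficient of variation within groups was 2.4%. The edgeR p-values are set against this small spread and do not separate the knockout from other differences between the cell populations. The alternatives were DESeq2 1.42.0, limma 3.58.1 voom, other scalings and filters, a replicate block and leaving out each library.

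The members and lists were chosen with earlier results of these data known. Besides the members, the rule named up to 3 called genes with the smallest p in each direction of each list, all called genes of lists with 6 or fewer, and the 3 genes nearest in pattern to 2 members. PORCN, WLS, LRP5, RSPO4, LGR4, LGR5, LGR6, CD44, PDGFRB and the markers at 0 fall outside it and were named after their values were seen. Intervals of ratios of counts cover counting error only.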

Additional observations from a re-analysis of the deposited data

Results flagged for a closer look

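Another spike-in entry, Renilla luciferase (Rluc), carried counts although the labels name only GFP and FLuc as spike-in RNAs. The lowest library had 271 Rluc counts, above the limit of 3 that a count of 0 allows. This entry served only in an alternative scaling. Scaling to the GFP, FLuc and Rluc counts, chosen after seeing the data, called the same numbers of members, 2 higher and 3 lower.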

How the results depend on the processing

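DKK1 and NKD2 stayed called higher under every alternative that tested them, with log2 fold changes of 1.27 to 1.63 over 15 alternatives and 0.52 to 0.70 over 16. LEF1 (-0.44 to -0.28) and TCF7L2 (-0.53 to -0.36) stayed called lower except under the required fold change of at least 1.5. NKD1 lost its call under that requirement, with DESeq2 (adjusted p = 0.0695) and without wild type replicate 1 (0.0509), within adjusted p-values of 0.00699 to 0.0695. AXIN2, ZNRF3, TCF7 and TCF7L1 passed under no alternative. TCF7L1 turned to -0.060 without double knockout replicate 3, in a range of -0.06 to 0.28 over the alternatives, and TCF7 to 0.061 without wild type replicate 1, in a range of -0.20 to 0.06. The causes were not tested.

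With a mean CPM of at least 5, which leaves DKK1 untested, 1 member was called higher. With a fold change of at least 1.5 beside the adjusted p, 0 members were called lower, and over all genes 1534 rose and 992 fell. Over all genes 4055 rose and 4038 fell, against 2133 and 4236 with GFP and FLuc scaling, and 2406 rose when Rluc was added. With GFP and FLuc scaling, 33.5% of the called genes were higher, against 50.1% with TMM. With GFP and FLuc scaling the log2 ratio of summed TCF/LEF levels was -0.39 against -0.29, and that of the NKD pair 0.051 against 0.15. The ratio of the 6 feedback genes, with RNF43 at its listed 0 counts, was -0.039 against 0.06. The replicate block called 2 members higher and 3 lower, and over all genes 4054 higher and 4055 lower, and changed no call of a member. For the other named pathway genes, 467 values under these alternatives kept direction and call and 41 lost the call. With windows of 2 and 10 Mb the neighbour median of LEF1 was -0.56 and -0.58. Low counts limit DKK1.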
